A study of Mus musculus with 12 samples.

Results

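Fc receptors and C-type lectin receptors are surface proteins with which neutrophils bind antibody-coated targets and the sugars and glycolipids of microbes. The genes described here are Fcgr2b, Fcgr3, Fcgr4 and Fcer1g of the Fc receptor group and Clec7a, Clec4d, Clec4e, Clec4n and Clec5a of the C-type lectin group. They were chosen by name, as the rows of the deposited table with these 9 symbols, among 13935 rows in all. Earlier results of these data were known when they were chosen. Each had a mean of at least 10 over the libraries, so 9 of the 13915 genes tested were members. RNA was sequenced from neutrophils flow sorted from mouse bone marrow by CD11b and Ly6G. The series title sets the work in a study of Socs3 deficiency, neutrophil activation and brain-targeted autoimmune encephalomyelitis.

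The libraries form 4 groups of 3. Both genotypes carry the Socs3fl/fl allele, a Socs3 gene flanked by recombinase sites, where Socs3 is a feedback inhibitor of the STAT3 signal downstream of cytokine receptors. The floxed groups carry that allele with no Cre named in the labels. In the LysMcre Socs3fl/fl groups, called LysMcre-labelled below, Cre recombinase is driven from the lysozyme 2 locus in myeloid cells, so effects of the Cre allele, of the loss of lysozyme 2 and of Socs3 deletion cannot be told apart. Sorted cells were held in medium with serum for 8 h, either untreated or with 10 ng/ml granulocyte colony-stimulating factor (G-CSF), a cytokine that acts on neutrophils and their precursors. Ages are not stated in the labels. Whether replicates were separate animals is not stated either, and p-values therefore reflect only how far replicate libraries varied, possibly for technical reasons. The measurement is in bulk RNA, in which fewer cells of a type and less RNA per cell cannot be told apart.

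As background, activating Fc gamma receptors bind immunoglobulin G and signal through the Fc receptor gamma chain, encoded by Fcer1g, whose tyrosine motif (the immunoreceptor tyrosine-based activation motif, ITAM) recruits the kinase SYK after phosphorylation by SRC family kinases. Fcgr2b is the inhibitory member of the family: its cytoplasmic inhibitory motif (ITIM) recruits the lipid phosphatase SHIP1, encoded by Inpp5d. Several C-type lectin receptors of neutrophils and macrophages borrow the same gamma chain or the related adaptor DAP12, encoded by Tyrobp, and so feed into the same kinase.

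All 9 genes lie in the mouse genome build mm10 on chromosomes 1 and 6. In the GENCODE annotation of that build the Fc receptor genes span 275.7 kb, with Fcgr2b at chr1:170958617-170976547 on the minus strand, Fcgr4 at chr1:171018920-171029761 on the plus strand, Fcgr3 at chr1:171051174-171064935 on the minus strand and Fcer1g at chr1:171229572-171234365 on the minus strand. Clec4n (chr6:123229843-123247021, plus), Clec4d (chr6:123262111-123275265, plus) and Clec4e (chr6:123281789-123289870, minus) lie side by side within 60.0 kb. Clec7a (chr6:129461591-129472779, minus) and Clec5a (chr6:40574894-40585821, minus) stand apart on the same chromosome. The table holds 1 value per gene, so isoforms are not separated. The annotation gives Clec7a the type polymorphic pseudogene, a class for genes that are intact in some strains.

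Promoter sequences were taken from RefSeq on GRCm38.p6, the assembly behind mm10, as the 250 bases before the start of a gene, and 8 of the 9 symbols matched. Fcgr2b and Fcgr3 are shown as genes of the same cluster, with Fcgr4 between them. They are of opposite sign in signalling, and their G-CSF response in floxed cells was small. Clec4d and Clec4e are shown because they encode partner receptors with a large response. Sequences run 5′ to 3′ on the gene's own strand and end at the base before the start, and capitals mark matches to the CEBP motif TTGCNNAA or the ETS motif GAGGAA on either strand. The regions are chr1:170976072-170976321 (minus), chr1:171059404-171059653 (minus), chr6:123261857-123262106 (plus) and chr6:123289872-123290121 (minus). The start is that of the RefSeq entry. The Fcgr2b and Fcgr3 regions lie inside the GENCODE spans of these genes, which end at 170976547 and 171064935. For these 2 genes distances before the start therefore do not count from the GENCODE end.
Fcgr2b: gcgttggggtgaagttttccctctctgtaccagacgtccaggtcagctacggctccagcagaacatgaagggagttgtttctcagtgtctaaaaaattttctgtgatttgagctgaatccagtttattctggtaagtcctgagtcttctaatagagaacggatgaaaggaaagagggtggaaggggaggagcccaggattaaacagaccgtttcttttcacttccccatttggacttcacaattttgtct
Fcgr3: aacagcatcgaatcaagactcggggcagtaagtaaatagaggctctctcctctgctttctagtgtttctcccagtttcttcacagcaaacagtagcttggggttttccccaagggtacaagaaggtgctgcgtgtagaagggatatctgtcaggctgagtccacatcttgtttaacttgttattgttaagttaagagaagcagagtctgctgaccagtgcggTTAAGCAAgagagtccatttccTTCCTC
Clec4d: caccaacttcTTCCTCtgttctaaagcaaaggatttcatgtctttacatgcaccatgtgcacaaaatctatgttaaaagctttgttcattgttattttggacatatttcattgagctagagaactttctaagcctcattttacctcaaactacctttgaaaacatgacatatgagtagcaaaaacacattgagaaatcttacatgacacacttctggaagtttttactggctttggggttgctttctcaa
Clec4e: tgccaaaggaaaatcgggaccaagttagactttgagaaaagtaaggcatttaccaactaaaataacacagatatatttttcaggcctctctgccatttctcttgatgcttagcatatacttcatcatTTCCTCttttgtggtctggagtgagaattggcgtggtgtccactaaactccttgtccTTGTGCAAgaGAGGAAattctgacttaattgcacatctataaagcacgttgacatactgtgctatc
The CEBP motif had 1 match in the Fcgr3 sequence, TTAAGCAA at 28 to 21 bases before the start, and 1 in Clec4e, TTGTGCAA at 66 to 59 bases before it. These were 2 of the 8 promoters of the described genes, and 9.55% of the 27025 promoters in the table held the motif. The ETS motif occurred in 6 of the 8, beside 23.1% of all promoters. An NF-kappaB motif (GGG, any 5 bases, then CC) was found in 4 of the 8, beside 45.4% of all. The motifs TTCNNNGAA (STAT) and TGANTCA (AP-1) were found in 0 of the 8, beside 7.18% and 6.87% of all. In the 4 sequences printed, no match to a motif overlapped a match to another motif, while NF-kappaB matches overlapped each other. A match is only a run of letters in this window.

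Some reads could be exchanged between copies. Of the 50-base stretches in the annotated transcripts, 9.58% of those in Fcgr3 also occur in Fcgr2b (166 stretches), and 8.41% of those in Fcgr2b occur in another gene, the same 166 in Fcgr3 included. An antisense transcript, Gm38204, overlaps Fcgr2b and cannot be separated from it without strand. The levels of these 2 genes are therefore less certain than those of Fcgr4, Fcer1g, Clec4d, Clec4e, Clec7a and Clec5a, which shared no such stretch, or Clec4n, which shared 0.686%.

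Depth was 19495754 to 26472118 recovered reads per library. Socs3 was not lower in the LysMcre-labelled libraries: its normalized count was 224.6 ± 23.1 in floxed and 292.4 ± 34.5 in LysMcre-labelled untreated libraries, and 19504 ± 1635 and 37335 ± 1219 with G-CSF (SD, n = 3). The table gives 1 value per gene, so the part flanked by recombinase sites is not read on its own. Lyz2, the locus that carries Cre, did separate the genotypes, at 222593 ± 3235 against 6053 ± 493 untreated and 46227 ± 2464 against 569.3 ± 64.8 with G-CSF (SD, n = 3). The neutrophil markers (12 genes, among them Ly6g, Itgam and Ptprc, all present in every group) summed to between 1707828 and 2024775 in every library. Single markers moved within that sum. G-CSF raised 5 and lowered 6 of the 12 in each genotype (limma). Over all genes it raised 24.1% and lowered 24.6% in floxed, and raised 31.1% and lowered 31.6% in LysMcre-labelled libraries. Between genotypes with G-CSF 2 markers were higher (Cxcr2 and Ly6g) and 6 lower, beside 17.1% and 18.9% of all genes. Among these 6 were Retnlg (-1.86), Camp (-1.08) and Ltf (-0.95). Monocyte and macrophage markers (11 of 11 tested) summed to 25981 to 29471 in floxed untreated, 27546 to 31266 in LysMcre-labelled untreated, 21361 to 28853 in floxed G-CSF and 24638 to 28286 in LysMcre-labelled G-CSF libraries. B cell markers, which matter for Fcgr2b as B cells carry that receptor, summed to 3393 to 6019 over all libraries. NK and T cell markers (4 of 8 tested) summed to 315.2 to 349.6 in floxed untreated and 379.7 to 425.2 in LysMcre-labelled untreated libraries. The sums were 136.5 to 177.7 in floxed G-CSF and 105.2 to 125.0 in LysMcre-labelled G-CSF libraries, and no groups overlapped. Single markers did not all follow: G-CSF lowered 1 of the 4 and raised 0 in each genotype (limma). Their median log2 change was -0.00 in floxed and -0.49 in LysMcre-labelled libraries. Between genotypes with G-CSF 2 of the 4 were lower and 0 higher. Mast cell, basophil and eosinophil markers (8 genes), cells that also use Fcer1g, summed to 1765 to 6073 over all libraries and dendritic cell markers (5 of 7) to 2947 to 6576. The part of these markers in the results was not tested. No marker of any list was at 0 throughout a group.

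Read per length, Fcer1g was the most abundant of the 9 genes in every group and Fcgr2b or Clec4n the least. On the scale of normalized counts per kb of annotated exon, floxed untreated libraries gave Fcer1g 12034 ± 375.1, Fcgr3 7104 ± 46.3, Clec4d 3276 ± 152.3, Clec7a 2252 ± 212.6, Fcgr4 1629 ± 161, Clec5a 1049 ± 40.8, Clec4e 644.8 ± 24.6, Fcgr2b 370.0 ± 18.8 and Clec4n 72.1 ± 22 (SD, n = 3). No 2 neighbours in that order overlapped between libraries. Fcer1g ranked 54 and Clec4n 6793 among the genes with a length. In LysMcre-labelled untreated libraries the order was the same, and only Clec4d and Clec7a overlapped as neighbours.

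With G-CSF Clec4d, Clec4e and Clec4n stood higher in the order, while Clec7a kept its place and Clec5a stood lower. In floxed libraries Clec4d, at 8588 ± 491.4 per kb, overlapped Fcgr3 at 7697 ± 493.9, and Clec4e, at 2470.3 ± 54.5, overlapped Fcgr4 at 2345 ± 149.5 (SD, n = 3). Clec4n reached 441.9 ± 101 per kb and stood above Fcgr2b at 345.1 ± 8.51. In LysMcre-labelled G-CSF libraries Clec4n reached 2673 ± 198.2 per kb and overlapped both Fcgr4 at 2857 ± 16.2 and Clec5a at 2351 ± 163, while Fcgr2b stayed lowest at 609.5 ± 51.2 (SD, n = 3). The rank of Clec4n went from 6793 to 2215 in floxed libraries and from 5690 to 412 in LysMcre-labelled ones. Lengths count every annotated exon, so the genes with long annotated ends, Fcgr2b with 5790 and Clec4e with 4965 bases, may be understated on this scale.

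**Figure D1:**
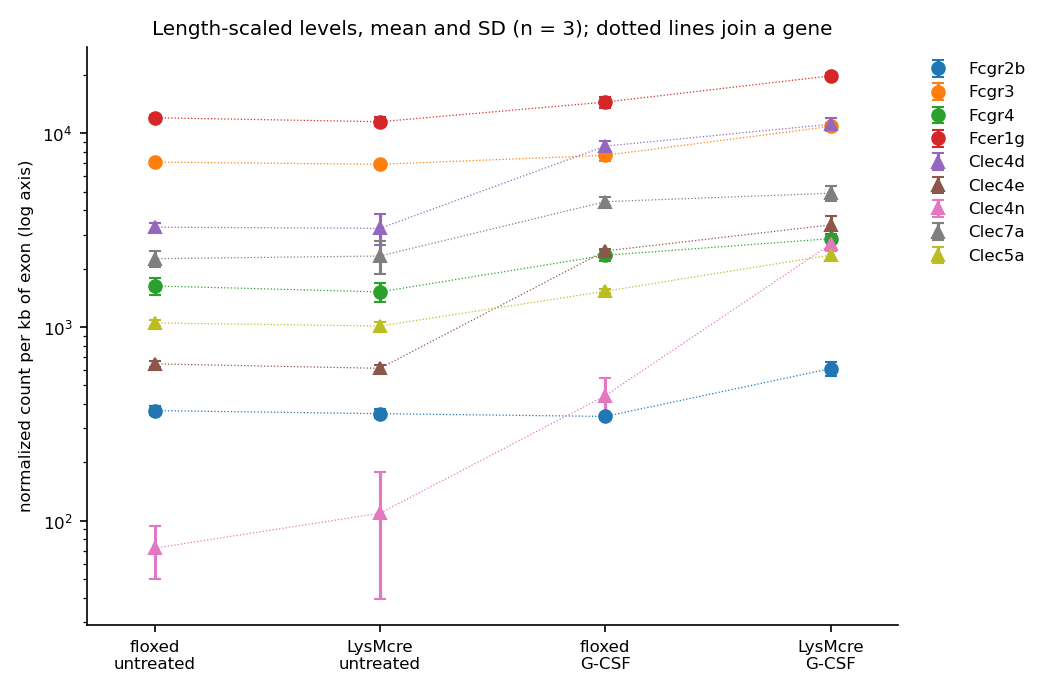
Length-scaled level (normalized count per kb of annotated exon, log axis) of the 9 genes in the 4 groups, with LysMcre for LysMcre-labelled. Points are means of 3 libraries, bars are SD, circles are Fc receptor genes and triangles lectins, and dotted lines only join a gene across groups: Fcer1g is on top throughout, and Clec4n climbs from 72.1 in floxed untreated to 2673 in LysMcre-labelled G-CSF libraries.

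Among the receptors for immunoglobulin G, the inhibitory Fcgr2b had the largest genotype difference with G-CSF of the 3 genes and no passing change with G-CSF in floxed cells. Normalized counts of Fcgr2b in replicates 1 to 3 were 2235, 2022.5 and 2170.2 in floxed untreated and 2174, 1955.5 and 2066 in LysMcre-labelled untreated libraries. Libraries with G-CSF gave 1943.5, 2011 and 2039 in floxed and 3837, 3504 and 3245.5 in LysMcre-labelled libraries. The first 3 groups overlap, and the LysMcre-labelled G-CSF libraries lie above all 9 others. With G-CSF the LysMcre-labelled mean was 3529 ± 297 (SD, n = 3) against 1998 ± 49.3 (SD, n = 3) in floxed libraries, a log2 difference of 0.82 (SE 0.07) or 1.76-fold (limma adjusted p = 1.59e-07). G-CSF itself raised Fcgr2b by 0.77 on the log2 scale in LysMcre-labelled libraries (limma adjusted p = 5.07e-08). In floxed libraries the log2 change was -0.10, with a 95% interval of -0.24 to 0.04 (limma adjusted p = 0.231). With the libraries scaled to equal totals that change was -0.19 and passed (limma adjusted p = 0.0484).

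Fcgr3, an activating low-affinity receptor and the most abundant Fc gamma receptor gene here, had a like pattern at a higher level. The 3 replicates of Fcgr3 had normalized counts of 12377, 12382 and 12240.2 in floxed untreated and 11768, 12328 and 11934 in LysMcre-labelled untreated libraries. With G-CSF the values were 13197, 14290.4 and 12599.6 in floxed and 19686, 18255 and 18569 in LysMcre-labelled libraries. The 3 floxed G-CSF libraries were above the 3 floxed untreated ones, though the lowest of them only narrowly. That change, 0.11 on the log2 scale with a 95% interval of -0.01 to 0.23, did not pass (limma adjusted p = 0.108), passed without floxed G-CSF replicate 3 (0.16, adjusted p = 0.0363) and was -0.09 after quantile normalization. In LysMcre-labelled libraries G-CSF raised Fcgr3 by 0.65 on the log2 scale, 1.57-fold (limma adjusted p = 5.92e-08). Between genotypes with G-CSF the log2 difference was 0.50 (SE 0.06), 1.41-fold (limma adjusted p = 4.99e-06).

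Fcgr4, the activating receptor that in mice prefers certain immunoglobulin G subclasses, responded to G-CSF in both genotypes. Normalized counts of Fcgr4 were 1988, 1879 and 2270.0 in floxed untreated and 1698, 1909 and 2111 in LysMcre-labelled untreated libraries. G-CSF libraries had 3053, 3055 and 2729 in floxed and 3578, 3575 and 3612 in LysMcre-labelled libraries. The untreated groups overlap, and both G-CSF groups lie above them without overlapping each other. The rise was 0.53 on the log2 scale, 1.44-fold, in floxed (limma adjusted p = 5.99e-05) and 0.92, 1.89-fold, in LysMcre-labelled libraries (limma adjusted p = 8.74e-08). The genotype difference with G-CSF was 0.29 (SE 0.08), 1.22-fold (limma adjusted p = 0.0121). That call was lost with equal totals (0.17, limma adjusted p = 0.0731) and without floxed G-CSF replicate 3 (0.23, limma adjusted p = 0.0582).

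Fcer1g, the signalling chain these activating receptors share with several lectins, rose in both genotypes. For Fcer1g the normalized counts were 10493, 10202 and 10857 in floxed untreated and 9564, 9912 and 10618 in LysMcre-labelled untreated libraries. After G-CSF the counts were 13088, 13191 and 11719 in floxed and 17863, 16793 and 17269 in LysMcre-labelled libraries. Both G-CSF groups lie above both untreated groups, and the LysMcre-labelled G-CSF libraries lie above all others. The rise was 0.27 on the log2 scale, 1.2-fold, in floxed libraries (limma adjusted p = 0.00169), a call lost after quantile normalization (0.06, limma adjusted p = 0.412). In LysMcre-labelled libraries it was 0.79, 1.73-fold (limma adjusted p = 1.44e-08). With G-CSF the genotypes differed by 0.45 (SE 0.06), 1.37-fold (limma adjusted p = 2.65e-05).

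Of the lectins, Clec4e encodes Mincle, a receptor for mycobacterial and other glycolipids that pairs with the gamma chain. In normalized counts, Clec4e was at 3089.7, 3332 and 3183 in floxed untreated and 3069.8, 3148 and 2892 in LysMcre-labelled untreated libraries. The G-CSF groups had 11983, 12291 and 12522 in floxed and 14779, 17078 and 18251 in LysMcre-labelled libraries. The G-CSF groups stand far above the untreated ones, and the LysMcre-labelled G-CSF libraries vary more among themselves than the floxed ones. G-CSF raised Clec4e 3.83-fold in floxed (log2 1.94, limma adjusted p = 4.53e-12) and 5.48-fold in LysMcre-labelled libraries (log2 2.45, limma adjusted p = 1.1e-13). The genotype difference with G-CSF was 0.44 on the log2 scale (SE 0.07), 1.36-fold (limma adjusted p = 0.000116).

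Clec4d encodes the lectin known as MCL, which forms a complex with Mincle. The normalized counts of Clec4d were 4969, 5443 and 5302 in floxed untreated and 5653, 5764 and 4086 in LysMcre-labelled untreated libraries. With G-CSF the counts were 13137.5, 14623 and 13437 in floxed and 16755, 17362.5 and 19293 in LysMcre-labelled libraries. LysMcre-labelled untreated replicate 3 is the lowest of all 12. The G-CSF rise was 2.62-fold in floxed (log2 1.39, limma adjusted p = 2.63e-08) and 3.48-fold in LysMcre-labelled libraries (log2 1.80, limma adjusted p = 5.87e-10). The genotypes differed with G-CSF by 0.37 (SE 0.10), 1.3-fold (limma adjusted p = 0.0112). This call was lost with equal totals (0.25, limma adjusted p = 0.0788), after quantile normalization (0.16, 0.29) and without LysMcre-labelled G-CSF replicate 3 (0.31, 0.0536).

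Clec4n, which encodes Dectin-2, a receptor for fungal mannans that also uses the gamma chain, had the lowest untreated level and the widest change. Normalized counts of Clec4n were 105.5, 132 and 69.6 in floxed untreated libraries, from 74 to 154 reads. In LysMcre-labelled untreated libraries they were 264, 131 and 70.6, from 76 to 251 reads. Under G-CSF the values were 536, 553 and 793 in floxed and 4051, 3493.5 and 3840.3 in LysMcre-labelled libraries. The untreated groups overlap and spread widely, each G-CSF group lies above both, and the lowest LysMcre-labelled G-CSF library stands above every floxed one. G-CSF raised Clec4n 6.18-fold in floxed libraries (log2 2.63, SE 0.34, limma adjusted p = 1.03e-05) and 27.9-fold, with a 95% interval of 16.9 to 46.2, in LysMcre-labelled libraries (log2 4.80, limma adjusted p = 6.09e-09). With G-CSF it was 6.13-fold higher in LysMcre-labelled than in floxed libraries, with a 95% interval of 3.7 to 10.1 (log2 2.62, limma adjusted p = 2.17e-05). Among the dendritic cell markers, 1 of 5 tested (Itgax) was higher and none lower in the same comparison. In the monocyte list 3 of 11 were higher, among them Fn1 (0.76) and Cd68 (0.64), and 1 was lower, Ly6c2 (-1.11). Of all genes 17.1% were higher and 18.9% lower in this comparison. The summed monocyte markers, 21361 to 28853 against 24638 to 28286, overlapped between these groups. Of the 11, G-CSF raised 6 and lowered 2 in floxed libraries, where 24.1% of all genes rose and 24.6% fell. In LysMcre-labelled libraries it raised 4 and lowered 2, where 31.1% rose and 31.6% fell. The part of these markers in the results for Clec4n was not tested.

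Clec7a, which encodes Dectin-1, the beta-glucan receptor that carries its own tyrosine motif, rose with G-CSF in both genotypes. Replicates of Clec7a had normalized counts of 6057, 6435 and 5331 in floxed untreated and 6891, 6750.2 and 4753 in LysMcre-labelled untreated libraries. Counts with G-CSF were 11454, 12468 and 11187 in floxed and 13729, 11673 and 13398 in LysMcre-labelled libraries. The groups with the same treatment overlap, and the groups that differ in treatment do not. The rise was 1.97-fold in floxed (log2 0.98, limma adjusted p = 4.87e-06) and 2.13-fold in LysMcre-labelled libraries (log2 1.09, limma adjusted p = 8.54e-07). The genotype difference with G-CSF was 0.14 on the log2 scale with a 95% interval of -0.11 to 0.39, did not pass (limma adjusted p = 0.386) and was -0.02 after quantile normalization.

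Clec5a encodes MDL-1, a receptor for dengue virus and other ligands that signals through DAP12. Clec5a had normalized counts of 4201, 3898.5 and 3981 in floxed untreated and 3755.5, 3819.9 and 4073 in LysMcre-labelled untreated libraries. In G-CSF cells the counts were 6017, 5738 and 5864 in floxed and 8370.0, 9097 and 9616 in LysMcre-labelled libraries. The G-CSF groups overlap neither each other nor the untreated groups. The rise was 1.46-fold in floxed (log2 0.54, limma adjusted p = 1.26e-06) and 2.32-fold in LysMcre-labelled libraries (log2 1.22, limma adjusted p = 5.34e-11). With G-CSF the genotypes differed by 0.62 (SE 0.06), 1.53-fold (limma adjusted p = 8.18e-07). Tyrobp, the gene of its adaptor, was at 22848.5 ± 1824 in floxed and 23043 ± 915.8 in LysMcre-labelled G-CSF libraries (SD, n = 3), a log2 difference of 0.01 with a 95% interval of -0.12 to 0.15 (limma adjusted p = 0.891). After quantile normalization it was -0.14 and passed as lower.

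**Figure D2:**
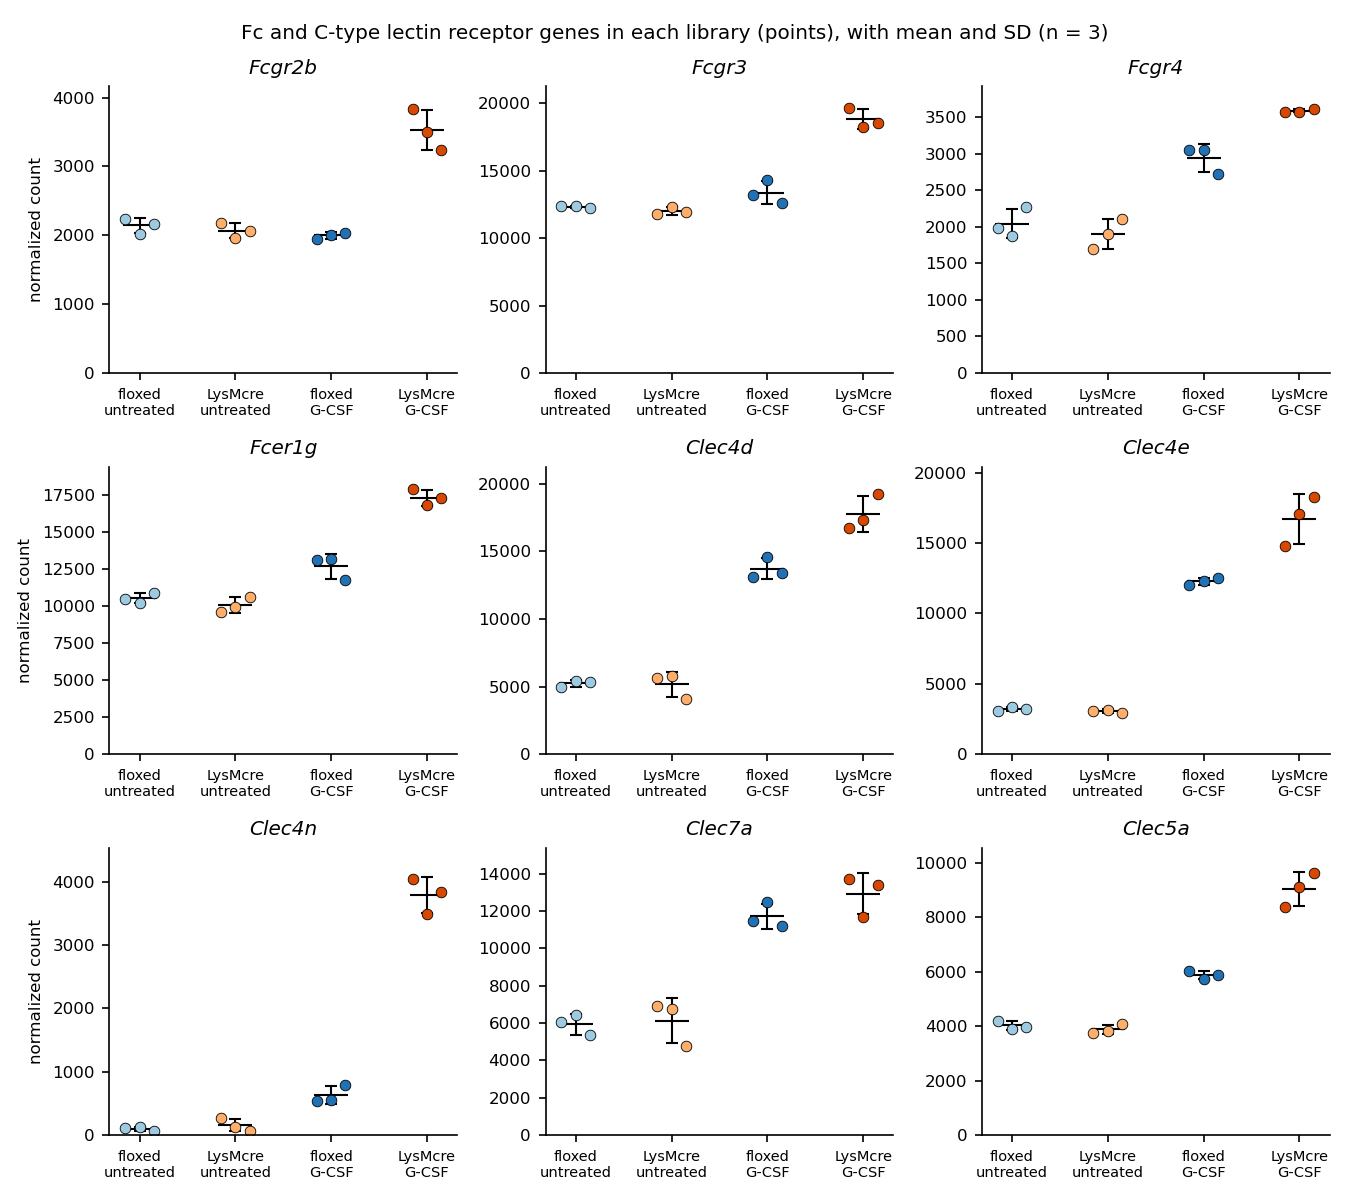
Normalized count (linear axes from 0) of each of the 9 genes in the 12 libraries, by group, with LysMcre for LysMcre-labelled. Points are libraries, horizontal lines are means and bars are SD (n = 3): the untreated groups overlap for every gene, and for all but Clec7a the LysMcre-labelled G-CSF libraries lie above the floxed G-CSF libraries.

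Without G-CSF the genotypes were not separated by any of the 9 genes. In limma 0 of 9 passed, 0 had an unadjusted p under 0.05, and edgeR and DESeq2 on recovered reads also called 0. Of all genes tested 0.115% passed in this comparison. The log2 differences of the described genes ran from -0.10 for Fcgr4 to 0.44 for Clec4n, with a median of -0.05 beside -0.01 over all genes. The difference of Clec4n had a 95% interval of -0.29 to 1.17, and without LysMcre-labelled untreated replicate 1 it was -0.04. The groups overlapped for every gene, while 9.34% of all genes had groups that did not overlap.

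With G-CSF, 8 of the 9 genes were higher in LysMcre-labelled libraries, all but Clec7a, and none was lower (limma, adjusted p under 0.05 over all genes). In this comparison 17.1% of all genes were higher and 36% differed in either direction. The median log2 difference of the described genes was 0.45, beside -0.01 over all genes. Groups did not overlap, with LysMcre-labelled libraries higher, for the same 8, and for 22.4% of all genes. Of all calls in this comparison 47.5% were higher, and 28.2% with equal totals.

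G-CSF raised 7 of the 9 genes in floxed libraries, all but Fcgr2b and Fcgr3, and lowered none, where 24.1% of all genes rose. The 5 lectins changed by 0.54 (Clec5a) to 2.63 (Clec4n) on the log2 scale, and the 4 Fc receptor genes by -0.10 (Fcgr2b) to 0.53 (Fcgr4). The median was 0.54 beside 0.00 over all genes, and 8 of 9 had higher G-CSF groups without overlap, beside 27.5% of all genes. In LysMcre-labelled libraries 9 of 9 rose, where 31.1% of all genes rose. There the lectins changed by 1.09 (Clec7a) to 4.80 (Clec4n) and the Fc receptor genes by 0.65 (Fcgr3) to 0.92 (Fcgr4), with a median of 1.09 beside -0.00 over all genes. All 9 had higher G-CSF groups without overlap, beside 33.6% of all genes. With equal totals the share of calls that were higher moved from 49.5% to 38.5% in floxed and from 49.6% to 31.2% in LysMcre-labelled libraries. These comparisons and the genotype comparisons share libraries.

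The difference between the 2 G-CSF responses was tested directly, as the interaction of genotype and treatment. It was positive and passed for 7 of 9 genes (limma), where 10.9% of all genes passed as higher. On the log2 scale it was 2.18 (SE 0.48) for Clec4n (limma adjusted p = 0.00397), 0.87 (SE 0.09) for Fcgr2b (7.81e-06), 0.67 (SE 0.08) for Clec5a (2.94e-05) and 0.54 (SE 0.08) for Fcgr3 (0.00016). Fcer1g and Clec4e each had 0.52 (limma adjusted p = 0.000376 and 0.00111). Fcgr4 had 0.39 (limma adjusted p = 0.0239), a call lost under 5 of its 19 alternatives. Clec4d, at 0.41 with a 95% interval of 0.09 to 0.73, did not pass (limma adjusted p = 0.0622) but did under 3 of 19 alternatives. For Clec7a the difference was 0.11 with a 95% interval of -0.24 to 0.47 (limma adjusted p = 0.71), and it was negative under 3 alternatives. The median was 0.52, beside -0.01 over all genes. With equal totals the share of interaction calls that were higher was 23% in place of 48.6%.

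**Figure D3:**
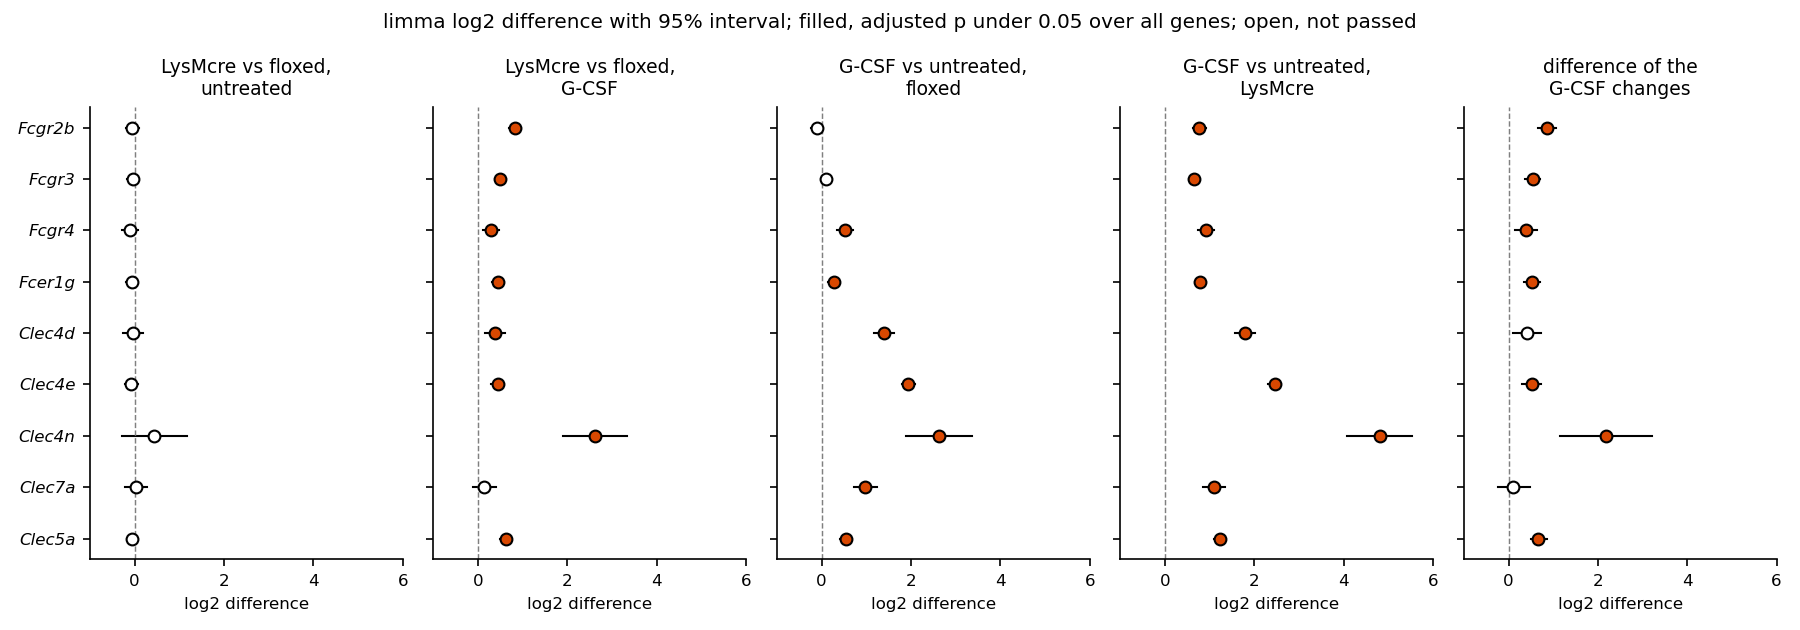
Log2 difference (x axis, same range in each panel) of the 9 genes in the 5 comparisons, with LysMcre for LysMcre-labelled. Points are limma estimates, bars are 95% intervals, filled points passed an adjusted p of 0.05 over all genes and open points did not: no gene is filled in untreated cells, 8 are filled between genotypes with G-CSF and 7 in the difference of the G-CSF changes.

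Because a ratio of genes within a library does not depend on how that library was scaled, activating and inhibitory receptors were also compared as ratios. Fcgr3 to Fcgr2b was 5.54, 6.12 and 5.64 in floxed untreated and 5.41, 6.3 and 5.78 in LysMcre-labelled untreated libraries. With G-CSF it was 6.79, 7.11 and 6.18 in floxed and 5.13, 5.21 and 5.72 in LysMcre-labelled libraries. The floxed G-CSF libraries had the highest mean and overlapped neither group they were compared with, though LysMcre-labelled untreated replicate 2 (6.3) exceeded floxed G-CSF replicate 3 (6.18). The log2 ratio was 0.32 lower in LysMcre-labelled than in floxed libraries with G-CSF (-0.32, two-sided exact permutation p = 0.1, 0.2 adjusted over 12 ratio tests). With 3 libraries against 3 the smallest p possible is 0.1, so no ratio could pass.

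The ratio of Fcgr4 to Fcgr2b moved in the same groups. It was 0.955 ± 0.0814 in floxed untreated, 0.927 ± 0.128 in LysMcre-labelled untreated, 1.48 ± 0.122 in floxed G-CSF and 1.02 ± 0.0901 in LysMcre-labelled G-CSF libraries (SD, n = 3). Floxed G-CSF libraries stood above the other groups without overlap, by 0.63 on the log2 scale against floxed untreated (exact permutation p = 0.1, adjusted 0.2), and LysMcre-labelled G-CSF libraries overlapped LysMcre-labelled untreated ones (0.15, exact permutation p = 0.5). Clec4d to Clec4e, the partners of a lectin complex, went from 1.64 ± 0.0289 to 1.12 ± 0.0618 with G-CSF in floxed libraries and from 1.7 ± 0.245 to 1.07 ± 0.0595 in LysMcre-labelled ones (SD, n = 3). These ratios did not overlap between treatments (log2 -0.55 and -0.66, exact permutation p = 0.1 each), and overlapped between genotypes within each treatment.

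**Figure D4:**
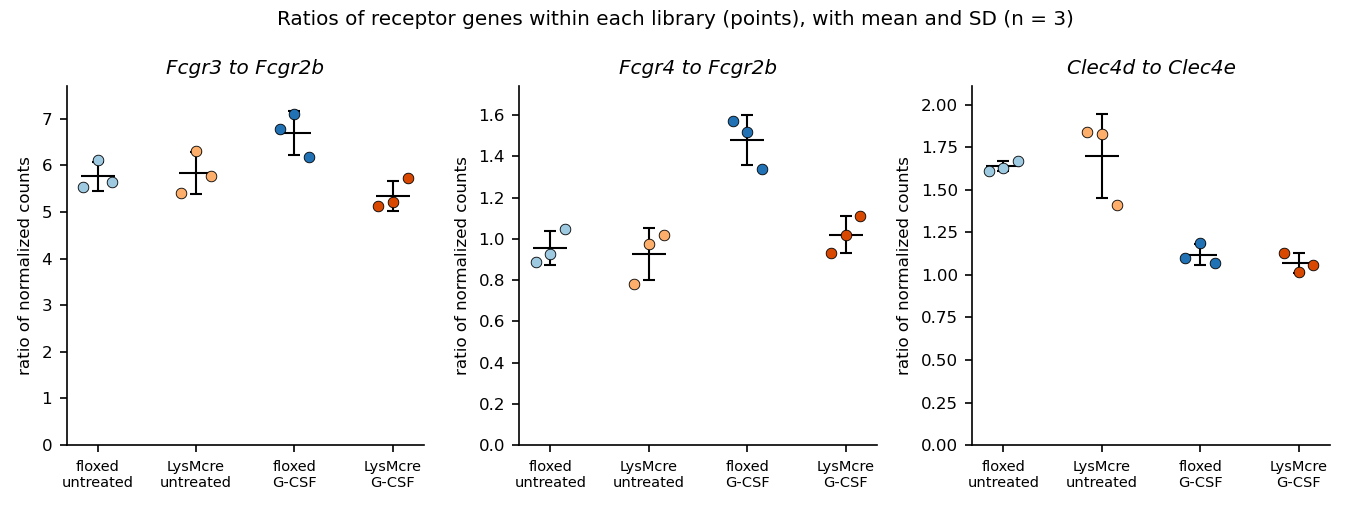
Ratio of normalized counts within each library (linear axes from 0) for Fcgr3 to Fcgr2b, Fcgr4 to Fcgr2b and Clec4d to Clec4e, by group, with LysMcre for LysMcre-labelled. Points are libraries, lines are means and bars are SD (n = 3): the mean Fc ratios are highest in floxed G-CSF libraries, with some overlap for Fcgr3 to Fcgr2b, and Clec4d to Clec4e is lower in both G-CSF groups.

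Other receptors of the same 2 families mostly did not share the rise. The described genes and the lists were chosen with earlier results of these data known, so this contrast may partly come from the choice. Of 23 other C-type lectin receptors tested, 2 were higher and 9 lower in LysMcre-labelled libraries with G-CSF (limma), with a median log2 difference of -0.30, where 18.9% of all genes were lower. G-CSF lowered 10 of them and raised 0 in floxed libraries, where 24.6% of all genes fell, and lowered 13 and raised 1 in LysMcre-labelled ones, where 31.6% fell. Most of the 23 were lower in floxed untreated libraries than Clec4n, the lowest described gene there at 102.4. Among these Clec2g was at 8.6, Klrb1b at 12.4 and Clec1a at 12.6, so small changes of such genes could be missed. Clec12a, an inhibitory receptor with an ITIM, was at 6666 ± 314.6 in floxed untreated and 2000.4 ± 97.8 in floxed G-CSF libraries, and at 6244 ± 157.8 and 740.7 ± 48.4 in LysMcre-labelled ones (SD, n = 3). With G-CSF it was lower in LysMcre-labelled libraries by a log2 difference of -1.43 (limma adjusted p = 2.96e-10). Ly75, an endocytic receptor also known as DEC-205, differed by -1.31 (limma adjusted p = 9.44e-08). The interaction passed as negative for 7 of the 23, beside 11.5% of all genes. It was positive for 1, Olr1 (1.03, limma adjusted p = 0.00148), beside 10.9% of all genes. Olr1 fell with G-CSF in both genotypes, by a log2 change of -1.49 in floxed and -0.46 in LysMcre-labelled libraries. Its positive interaction is thus a smaller fall. The interaction was -1.34 for Clec12a and -1.21 for Ly75 (limma adjusted p = 7.61e-08 and 1.86e-05).

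Of 8 other Fc receptors tested, G-CSF raised 1 and lowered 1 in each genotype. Beside these, 24.1% of all genes rose and 24.6% fell in floxed libraries, and 31.1% rose and 31.6% fell in LysMcre-labelled ones. Fcgr1, the high-affinity activating receptor, rose from 72 ± 34.9 to 167.2 ± 36.3 in floxed and from 47.8 ± 16.6 to 290.0 ± 52.7 in LysMcre-labelled libraries (SD, n = 3), log2 1.29 and 2.62 (limma adjusted p = 0.00249 and 2.1e-06). The gene that fell was Fcgrt, the neonatal Fc receptor, by 0.76 and 1.04 on the log2 scale. Between genotypes with G-CSF Fcgr1 differed by 0.80 and did not pass (limma adjusted p = 0.0558), while 9 of its 20 alternatives passed. In that comparison 1 of the 8, Trim21, a cytosolic antibody receptor, was lower, beside 18.9% of all genes. Its difference was -0.29 (limma adjusted p = 0.0402), a call lost under 7 alternatives.

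Among the kinases and adaptors that act downstream of ITAM receptors, 6 of 24 were higher and 5 lower in LysMcre-labelled libraries with G-CSF, beside 17.1% and 18.9% of all genes, with a median log2 difference of -0.04. Syk, the kinase downstream of the activating receptors described here, was at 34940 ± 1895 in floxed and 48507 ± 1293 in LysMcre-labelled G-CSF libraries (SD, n = 3), a log2 difference of 0.47 (limma adjusted p = 1.37e-05). Lyn, a SRC family kinase that phosphorylates both activating and inhibitory motifs, differed by 0.43. With G-CSF 9 rose and 9 fell in floxed libraries, beside 24.1% and 24.6% of all genes, and 11 rose and 8 fell in LysMcre-labelled ones, beside 31.1% and 31.6%. Of 9 inhibitory phosphatases and other genes of ITIM signalling, 3 were higher and 3 lower between genotypes with G-CSF, again beside 17.1% and 18.9% of all genes. Inpp5d, the partner of the Fcgr2b motif, was 0.50 higher on the log2 scale (limma adjusted p = 0.00156). With G-CSF Inpp5d fell in floxed libraries (-0.46, limma adjusted p = 0.00189). In LysMcre-labelled libraries its change was 0.04 and did not pass (limma adjusted p = 0.75). Ubash3b, a phosphatase that acts on SYK, was 0.77 higher (limma adjusted p = 9.65e-08), and Ptpn22, a phosphatase of SRC family kinases, was lower (-0.73).

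Paired and ITAM-coupled myeloid receptors, a list of 21 tested genes of the LILR, PIR, SIRP, TREM, CD300 and related families, changed in both directions. G-CSF raised 12 and lowered 6 in floxed libraries, where 24.1% of all genes rose and 24.6% fell, and raised 11 and lowered 7 in LysMcre-labelled ones, where 31.1% rose and 31.6% fell. Lilrb4a, an inhibitory receptor, rose from 20073 ± 1291 to 112188.5 ± 5032 in floxed and from 18823 ± 516.1 to 180145 ± 21328 in LysMcre-labelled libraries (SD, n = 3), 5.59-fold and 9.53-fold. Between genotypes with G-CSF 4 of the 21 were higher and 8 lower, beside 17.1% and 18.9% of all genes, Lilrb4a among the higher ones (0.68, limma adjusted p = 1.4e-05). Over all 5 lists 85 genes were tested, and 0 differed between genotypes without G-CSF in limma, edgeR or DESeq2, with 2 at an unadjusted limma p under 0.05.

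**Figure D5:**
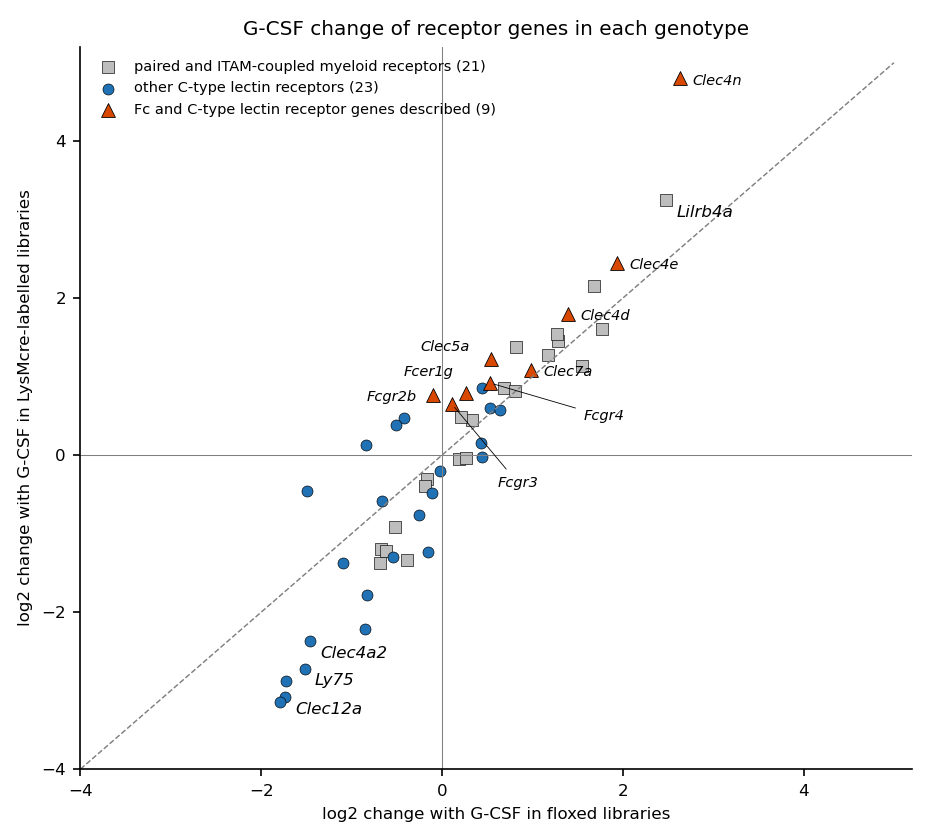
Log2 change with G-CSF in floxed (x axis) and LysMcre-labelled libraries (y axis) for the 9 described genes, 23 other C-type lectin receptors and 21 paired and ITAM-coupled myeloid receptors. Each point is a gene, and the dashed line marks equal change in both genotypes: the described genes lie above a y of 0, while Clec12a, Ly75 and Clec4a2 lie at the lower left.

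The genes around the clusters did not all move with them. The 3 tested neighbours of Clec4n, Clec4d and Clec4e within 200000 bases are lectin genes of the same family. Clec4a2, an inhibitory receptor whose gene lies beside the cluster at chr6:123106428-123143999, went from 4187 ± 281.8 to 1526 ± 124.3 in floxed libraries with G-CSF and from 3849 ± 170.6 to 745.6 ± 47.6 in LysMcre-labelled ones (SD, n = 3). These are log2 falls of -1.46 and -2.37 (limma adjusted p = 2.02e-10 and 2.67e-13), and the genotypes differed by -1.03 with G-CSF (limma adjusted p = 3.9e-08). Clec4b2 was 0.82 higher in LysMcre-labelled libraries with G-CSF (limma adjusted p = 0.0238), at 35.1 ± 14.9 against 18.4 ± 2.42 (SD, n = 3), a call lost under 4 of 20 alternatives, among them without LysMcre-labelled G-CSF replicate 3 (0.51). Around the Fc receptor genes 6 of 18 tested neighbours were higher and 0 lower in LysMcre-labelled libraries with G-CSF, where 17.1% of all genes were higher and 18.9% lower. The 6 included Pcp4l1 (1.34) and B4galt3 (1.08). Around Clec7a 2 of 11 were higher and 4 lower, and around Clec5a 1 of 4 was higher, E330009J07Rik (0.81). Of the 18 around the Fc receptor genes, G-CSF raised 9 and lowered 2 in floxed libraries, where 24.1% of all genes rose and 24.6% fell. In LysMcre-labelled libraries it raised 10 and lowered 2, where 31.1% rose and 31.6% fell.

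The genes whose pattern over the 12 libraries was most like that of each described gene were found by the root mean square difference of centred log2 values. This distance was 0.04 for the closest gene to Fcgr3, Pitpna, and to Fcer1g, Cfl1. It was 0.05 for Clec5a (Fam178a), 0.06 for Clec4e (Ttc39b), 0.07 for Fcgr2b (Stat5a) and Fcgr4 (Sc5d), 0.09 for Clec7a (Taf15) and 0.11 for Clec4d (Arg2). The next in order were Rpn1 and D16Ertd472e for Fcgr2b, Ndel1 and Stx7 for Fcgr3, Nxpe3 and Plekhg2 for Fcgr4, and Gnb1 and Tpm3 for Fcer1g. For the lectins they were Rnf11 and Suv39h2 for Clec4d, Mvp and Picalm for Clec4e, Csf3r and Abi3 for Clec7a, and Adgrg3 and Arfgap3 for Clec5a. For Clec4n the distances were larger: the nearest were Gpr35 at 0.38, Pou6f1 at 0.41 and Syn3 at 0.44. The distance was not scaled by the size or spread of a gene's changes, both wide for Clec4n. Gpr35 had group means of 137.3, 170.7, 860.1 and 4321 in the order floxed untreated, LysMcre-labelled untreated, floxed G-CSF and LysMcre-labelled G-CSF. Those of Clec4n were 102.4, 155.1, 627.5 and 3794.9 in the same order. Between the described genes Fcgr3 and Fcer1g were 0.09 apart, with 41 other genes closer to Fcgr3, and Fcgr3 and Fcgr2b were 0.14 apart.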

How the data were processed

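RNA was sequenced from 12 libraries in 4 groups of 3, grouped by their titles, or by description for the 3 LysMcre-labelled G-CSF libraries. The titles of these 3 name both G-CSF and untreated and omit the floxed allele, while their other labels name G-CSF. Replicate 2 of the LysMcre-labelled untreated group has a 3 in its column's name, and was numbered by its title instead. The deposited values are a signal unit, read counts that the authors divided by 1 size factor per library, called normalized counts here. This was read from the values: 100% were whole reads at a tolerance of 0.01 read after division by the step of the library. The build was mm10 (per the submitters' processing notes). What strand setting, annotation, counter and aligner were used is not given in the sources used here. Of the table's columns 2 had no sample and were not used. Depth was 19495754 to 26472118 recovered reads, and replicates of a group differed beyond sampling noise, so all libraries were counted.

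Values were taken as log2(normalized count + 1), 20 rows with a mean under 10 were left out, and limma 3.58.1 (R 4.3.3) fitted 4 groups together with a trended prior and 8 residual degrees of freedom. Fold changes on this scale understate changes of low genes. Two-sided p-values were adjusted over all 13915 genes by the Benjamini-Hochberg method, and 0.05 was the threshold. The genotypes were compared untreated and with G-CSF, the treatments in each genotype, and the 2 treatment effects with each other (interaction). The design assumed values that are not whole reads; limma stayed the main test, and edgeR 4.0.16 and DESeq2 1.42.0 on recovered reads were alternatives, beside a pseudocount of 10, no filter, equal totals, quantile normalization, only the groups compared, a replicate block and leaving out each library. Ratios of genes were compared by two-sided exact permutation tests. The fits were tested on simulated data.

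The 9 genes and the gene lists were chosen with earlier results of these data known. Named genes were all 9, up to 4 genes per list and contrast with the largest difference past the threshold, the 3 most similar genes per described gene, and neighbours within 200000 bases. Tyrobp, Olr1, Malt1, Plcg2, single markers and non-passing values of Fcgr1 were added after their values were seen. Positions and exon lengths are from the GENCODE M21 annotation of mm10, in which 13519 symbols matched once and 416 did not, and promoters are from RefSeq on GRCm38.p6.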

Additional observations from a re-analysis of the deposited data

Results flagged for a closer look

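The results gathered here are genes whose change with G-CSF differed between the 2 genotypes by the limma interaction test, as the log2 change in LysMcre-labelled minus that in floxed libraries. Single outlying libraries were looked for only through the fits with each library left out. Among the Fc receptor genes the difference was 0.87 for Fcgr2b, 0.54 for Fcgr3, 0.52 for Fcer1g and 0.39 for Fcgr4, and that of Fcgr1 was 1.33. Among the described lectins it was 2.18 for Clec4n, 0.67 for Clec5a and 0.52 for Clec4e.

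Of all genes 10.9% passed with a positive and 11.5% with a negative difference. Of 23 other C-type lectin receptors 7 had a negative difference, among them Clec1b (-1.37), Clec4g (-1.35), Clec12a (-1.34), Ly75 (-1.21) and Clec4a2 (-0.91). Clec4g was at 4.5 in LysMcre-labelled G-CSF libraries, close to the 3.22 to 3.54 that 3 reads are worth there. A positive difference was found for 1, Olr1 (1.03), which fell with G-CSF in both genotypes, less so in LysMcre-labelled libraries. Of 24 kinases and adaptors the difference was positive for 6, among them Syk (0.53), Vav1 (0.50), Vav3 (0.48) and Lyn (0.45). It was negative for 2, Malt1 (-0.34) and Plcg2 (-0.28). In the ITIM list of 9 it was positive for 2, Ubash3b (0.73) and Inpp5d (0.50), and negative for 3, among them Ptpn22 (-0.72) and Dok1 (-0.51). Of 21 paired receptors 3 had a positive difference, among them Lilrb4a (0.77), and 6 a negative one, among them Cd300lb (-0.95), Pilrb2 (-0.68) and Treml4 (-0.60). The calls of Fcgr1 and Malt1 were each lost under 9 of 19 alternatives, that of Plcg2 under 10 and that of Inpp5d under 5, while that of Olr1 was lost under none of the 19.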

How the results depend on the processing

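Counts of all genes called stayed within 1.5 times of the main count except between untreated genotypes, where limma called 16, DESeq2 28 and leaving out 1 library 9 to 21 (9 without floxed untreated replicate 1, 10 without LysMcre-labelled untreated replicate 1). The number of described genes called was 7 to 8 with G-CSF between genotypes, 7 to 8 in floxed and 9 in LysMcre-labelled libraries, and 6 to 8 for the interaction when each library was left out. Directions reversed only for differences that had not passed. Between untreated genotypes these were, with equal totals, Fcgr3 (0.01) and Clec4d (0.01); after quantile normalization Clec4d (0.00); and with 1 library left out Clec4d (-0.12 to 0.13), Clec4n (-0.04 to 0.90) and Clec7a (-0.06 to 0.20). The others were Clec7a between genotypes with G-CSF (-0.02) and Fcgr3 with G-CSF in floxed libraries (-0.09), both after quantile normalization, and the interaction of Clec7a (-0.06 with equal totals, -0.10 after quantile normalization, -0.06 to 0.21 with 1 library left out). Tyrobp between genotypes with G-CSF was -0.10 with equal totals and -0.14 after quantile normalization, where it passed, and ran from -0.05 to 0.05 with 1 library left out. The cause was not tested. Equal totals moved the median of all genes to -0.126 between genotypes with G-CSF, -0.088 and -0.259 with G-CSF in floxed and LysMcre-labelled libraries and -0.181 in the interaction, and single differences are to be read against that shift.

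With the replicate number as a block limma called 16, 4892, 6673, 8692 and 2967 genes in the 5 comparisons, against 16, 5013, 6784, 8717 and 3112 without it. Deviations of libraries with the same number correlated from -0.14 to 0.32. The highest values were between the treatments, at 0.32 and 0.20 for floxed replicates 1 and 2 and 0.21 for LysMcre-labelled replicate 1. In these cases the library with the same number was also the best match. What the shared number stands for was not tested. Of 80 results of list genes, recomputed 1579 times in all, 1518 kept their call and direction, 48 lost a call, 9 gained one and 4 reversed. With 3 libraries a group, Clec4n in untreated cells, at 74 to 251 reads, was the least precise of the described genes.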
